A study of Mus musculus with 6 samples.

Results

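Unstimulated NIH3T3 cells were compared with unstimulated L929 cells, a pair of established mouse fibroblast lines, to describe how they differed before any interferon was added. NIH3T3 was derived from mouse embryos and L929 from mouse connective tissue, and neither carried any alteration or agent that the labels name. The comparison rested on 2 of the 6 arrays of the series, 1 for each line, chosen by the sample titles, and it covered 19938 genes. The other 4 arrays held the same lines after 4 h of interferon-beta (IFN-β), and the RAW264.7 macrophage line in both conditions. Each array measured total RNA of 1 sample, so no value has a replicate spread and no test was possible. The RNA is of whole cultures, in which fewer expressing cells and less RNA per cell cannot be told apart. Each line is 1 established line, so a difference describes these lines and not fibroblasts of embryo or connective tissue at large. The IFN-β arrays of NIH3T3 and L929 gave the same difference a second time. They carried the treatment as well and are no replicate.

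Fibroblasts secrete and remodel the extracellular matrix, a network of collagens, glycoproteins and proteoglycans that holds tissues together and stores growth factors. They keep a memory of their position in the body in their Hox genes and related transcription factors, and their mesenchymal precursors can also give rise to fat, cartilage, bone and smooth muscle. NIH3T3 is widely used to study transformation and growth factor signalling. L929 is widely used as a target of the cytokine TNF, which kills it by necroptosis, and as a source of the macrophage growth factor Csf1.

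Levels are given as log2 values of the deposited normalization (RMA), so that a difference of 1 is 2-fold, and differences are NIH3T3 minus L929. A gene was counted as apart at 3-fold, the size used in the design text of the series. Between the unstimulated arrays 584 genes (2.93%) were at least 3-fold higher in NIH3T3 and 388 genes (1.95%) at least 3-fold higher in L929, together 4.88% of the genes. On both the unstimulated and the IFN-β arrays, 460 genes (2.31%) were at least 3-fold higher in NIH3T3 and 249 (1.25%) in L929. These percentages are the background against which the gene lists below are read. Most genes were close, and 17821 (89.4%) differed by less than 2-fold. The median difference over all genes was -0.03. Just inside and outside the limit stood Gabbr1, 3.003-fold, and Ank, 2.999-fold, on the NIH3T3 side, and Tmem50b, 3.001-fold, and Cdr2l, 2.996-fold, on the L929 side.

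Many of the genes apart were high in 1 line and in the lower part of the scale in the other. Among the 584 genes higher in NIH3T3 the median level was 7.44 in NIH3T3 and 4.44 in L929, and 352 of them (60.3%) lay below the median of the L929 array, 4.77. Among the 388 genes higher in L929 the median level was 7.50 in L929 and 4.84 in NIH3T3, and 186 of them (47.9%) lay below the median of the NIH3T3 array, also 4.77. At 10-fold, 154 genes were counted for NIH3T3 and 73 for L929, and at 30-fold 47 and 25. Array levels flatten near background, so folds against so low a level are uncertain in size.

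**Figure D1:**
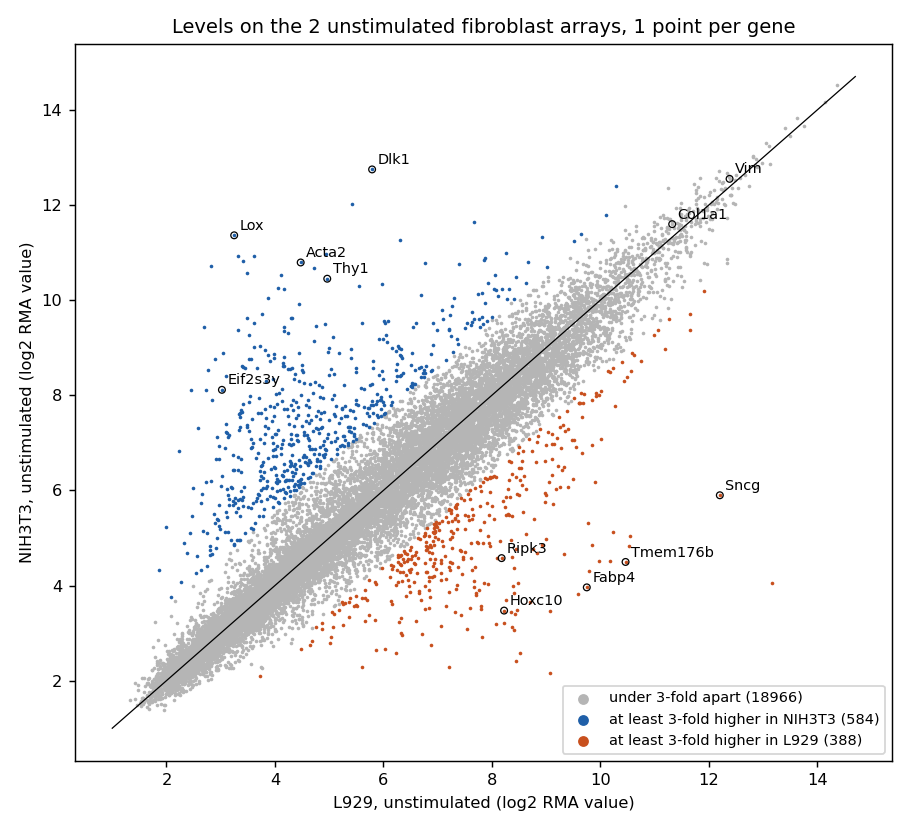
Each point is 1 of the 19938 genes, with its log2 RMA level on the unstimulated L929 array (x axis) against the unstimulated NIH3T3 array (y axis), and the line marks equal levels. The 584 genes at least 3-fold higher in NIH3T3 (blue) and the 388 at least 3-fold higher in L929 (orange) fan out from the diagonal, while Vim and Col1a1 lie on it.

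Promoter sequences are shown for 8 genes. Tmsb4x and Cd34 were among the genes furthest above L929 in NIH3T3, and Sncg and Tmem176b among those furthest above NIH3T3 in L929. Dlk1 and Grb10 are imprinted genes, and Pparg and Ripk3 belong to the adipogenic and necroptosis lists. Each sequence is the 200 bases directly before the gene's start in the RefSeq table of build GRCm38.p6, 5′ to 3′ on the gene's strand, with the dinucleotide CG, the site of DNA methylation, in capitals. The 8 genes were chosen for printing after their values were seen. Promoters of Marcksl1, 3830417A13Rik and Acta2 were extracted as well and are not shown.
Tmsb4x promoter, chrX:167209219-167209418, minus strand: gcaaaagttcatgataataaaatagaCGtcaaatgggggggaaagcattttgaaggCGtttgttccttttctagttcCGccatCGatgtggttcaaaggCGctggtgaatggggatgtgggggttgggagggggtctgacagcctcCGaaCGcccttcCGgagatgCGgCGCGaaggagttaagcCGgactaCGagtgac
Cd34 promoter, chr1:194938621-194938820, plus strand: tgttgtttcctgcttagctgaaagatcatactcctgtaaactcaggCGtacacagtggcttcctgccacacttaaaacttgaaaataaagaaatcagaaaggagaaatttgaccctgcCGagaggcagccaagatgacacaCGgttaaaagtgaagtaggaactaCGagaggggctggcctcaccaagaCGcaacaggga
Dlk1 promoter, chr12:109452623-109452822, plus strand: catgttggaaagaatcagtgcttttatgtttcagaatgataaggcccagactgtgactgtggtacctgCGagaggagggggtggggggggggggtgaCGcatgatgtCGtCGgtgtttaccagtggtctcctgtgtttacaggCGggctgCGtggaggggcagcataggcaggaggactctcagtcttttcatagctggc
Grb10 promoter, chr11:12037421-12037620, minus strand: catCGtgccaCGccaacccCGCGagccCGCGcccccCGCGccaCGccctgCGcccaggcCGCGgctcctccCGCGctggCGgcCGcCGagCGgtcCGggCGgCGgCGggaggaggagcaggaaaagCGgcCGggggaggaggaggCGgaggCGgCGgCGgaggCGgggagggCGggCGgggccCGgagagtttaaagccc
Sncg promoter, chr14:34374670-34374869, minus strand: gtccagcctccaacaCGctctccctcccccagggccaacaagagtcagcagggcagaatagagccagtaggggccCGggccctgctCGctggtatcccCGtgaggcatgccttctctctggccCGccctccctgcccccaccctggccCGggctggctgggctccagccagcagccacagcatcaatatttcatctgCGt
Tmem176b promoter, chr6:48841138-48841337, minus strand: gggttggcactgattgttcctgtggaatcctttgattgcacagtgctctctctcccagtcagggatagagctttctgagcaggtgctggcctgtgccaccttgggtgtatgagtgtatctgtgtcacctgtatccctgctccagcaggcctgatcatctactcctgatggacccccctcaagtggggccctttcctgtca
Pparg promoter, chr6:115360944-115361143, plus strand: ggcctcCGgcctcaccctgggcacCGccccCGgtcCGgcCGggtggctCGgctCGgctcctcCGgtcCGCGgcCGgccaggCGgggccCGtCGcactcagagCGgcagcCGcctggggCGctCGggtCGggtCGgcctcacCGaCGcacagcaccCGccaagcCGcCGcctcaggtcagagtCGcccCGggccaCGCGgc
Ripk3 promoter, chr14:55788858-55789057, minus strand: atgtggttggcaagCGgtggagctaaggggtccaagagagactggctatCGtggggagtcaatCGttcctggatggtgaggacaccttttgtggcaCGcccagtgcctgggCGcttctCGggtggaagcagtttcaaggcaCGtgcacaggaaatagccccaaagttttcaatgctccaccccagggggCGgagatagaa

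Promoters differed widely in CG among these genes. Within the 200 bases, Grb10 held 32 CG and Pparg 29, Tmsb4x held 13, Ripk3 8, Sncg 7, Dlk1 6 and Cd34 5, and Tmem176b held 0. The RefSeq table gave a 300-base window, 250 bases before to 50 after the start, for 15614 of the genes measured. The median count of CG in it was 15 over all of them, 19 over 430 genes higher in NIH3T3 and 14 over 305 genes higher in L929. It was 24 over 1867 genes under 1.5-fold apart with a mean level of at least 8. The motif TATAAA, searched on both strands, was found in 12.1% of all windows, 11.6% of those of genes higher in NIH3T3, 11.8% of those of genes higher in L929 and 6.75% of those of the close, high genes. These are descriptions of letters in a window and say nothing of methylation or binding, which were not measured.

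The cell type of each line was first set against its markers. Of 19 fibroblast markers measured, 17 lay above the array median in NIH3T3 and 15 in L929. Vim, an intermediate filament protein of mesenchymal cells, stood at 12.55 in NIH3T3 and 12.38 in L929. Col1a1, a chain of type I collagen, stood at 11.60 and 11.32, and Sparc, a collagen-binding matrix protein, at 10.84 and 11.09. Both lines thus had these markers at high and near-equal levels. In unstimulated RAW264.7 Col1a1 was at 6.17 and Sparc at 4.69, and the median of the fibroblast markers was 5.11. Vim was high in RAW264.7 too, at 10.54, as were the listed markers P4hb (10.91) and S100a4 (9.61). Macrophage markers were low in both, with list medians of 3.86 in NIH3T3 and 4.08 in L929 against 10.37 in RAW264.7. Of the 17 macrophage markers and 13 epithelial markers 0 were 3-fold apart between the fibroblast lines.

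Other fibroblast markers were far apart, and all of these were higher in NIH3T3. There were 6 of the 19 (31.6%, against 2.93% of all genes), and 5 of the 6 on both pairs of arrays. Thy1, a surface glycoprotein often used to sort fibroblasts, stood at 10.45 in NIH3T3 and 4.96 in L929, a 44.8-fold difference. Pdgfra, a receptor for platelet-derived growth factor, stood at 10.15 and 7.82. Fn1, fibronectin, stood at 12.40 and 10.29, so that it was high in both lines and 4.33-fold higher in NIH3T3. Postn (5.12 and 3.13) and Lum (4.07 and 2.27) were low in both. Fap, a surface protease of activated fibroblasts, was at 2.38 and 2.50 near the bottom of the scale in both.

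Matrix glycoproteins and proteoglycans were the list with the most genes apart. Of 43 measured, 17 (39.5%, against 2.93% of all genes) were at least 3-fold higher in NIH3T3 and 0 in L929, 15 of them on both pairs, and the median difference of the list was 0.83. Dcn, decorin, a small proteoglycan that binds collagen fibrils and growth factors, stood at 10.82 on the unstimulated NIH3T3 array and 10.62 on its IFN-β array, and at 3.41 and 3.74 on those of L929. That is a 169-fold difference between the unstimulated arrays, and in L929 decorin was at the level of RAW264.7, 3.47. Nid1, nidogen, a linker of basement membranes, stood at 10.26 and 4.05, and Tnc, tenascin C, a glycoprotein of developing and healing tissue, at 9.71 and 3.76. Thbs1, thrombospondin 1, which activates latent TGF-β, stood at 9.92 and 4.44, and Fbln5, fibulin 5, needed to assemble elastic fibres, at 11.27 and 6.30. The list was not uniform. Efemp1, another fibulin, was at 11.80 and 11.59, and Fbln2 at 9.95 and 9.52.

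The collagens themselves showed no such excess in NIH3T3. Of 24 collagen genes 0 were 3-fold higher in NIH3T3 and 2 (8.33%, against 1.95% of all genes) in L929, with a median difference of -0.21, and neither of these 2 was 3-fold apart on both pairs. At 2-fold, 7 collagens were higher in L929 and 1 in NIH3T3, and 16 (66.7%, against 89.4% of all genes) were under 2-fold apart. Col18a1, whose fragment is endostatin, stood at 5.67 in NIH3T3 and 7.78 in L929, and Col5a3 at 5.23 and 6.98. Between the IFN-β arrays the collagens stood differently. Col1a1 was at 11.87 in NIH3T3 and 10.10 in L929, a difference of 1.77 against 0.27 at rest. The list median there was 0.44, against a median of 0.21 over all genes on the same arrays. Of 17 genes of collagen processing and crosslinking 2 (11.8%, against 2.93%) were higher in NIH3T3 and 1 (5.88%, against 1.95%) in L929. The list median was -0.20. Lox, lysyl oxidase, which crosslinks collagen and elastin, stood at 11.36 and 10.90 on the NIH3T3 arrays, unstimulated and IFN-β, and at 3.25 and 3.05 on those of L929. Its 277-fold difference was the largest on the NIH3T3 side. Its relative Loxl1 was 2.21-fold higher in NIH3T3. P4ha3, a prolyl hydroxylase subunit, was 6.89-fold higher in NIH3T3, and Pcolce2, an enhancer of procollagen processing, 20.9-fold higher in L929 with levels of 3.99 and 8.38.

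Of 24 matrix proteases and inhibitors 6 (25%, against 2.93% of all genes) were higher in NIH3T3 and 1 (4.17%, against 1.95%) in L929. Mmp2, gelatinase A, stood at 10.29 in NIH3T3 and 5.55 in L929. Timp3, an inhibitor of matrix proteases that is itself bound to matrix, stood at 9.62 and 4.29. Mmp14, the membrane protease that activates pro-Mmp2, was at 9.35 and 9.29. The protease higher in L929 was Ctsk, cathepsin K, a collagen-degrading enzyme best known from osteoclasts, at 3.66 in NIH3T3 and 8.69 in L929, a 32.7-fold difference.

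**Figure D2:**
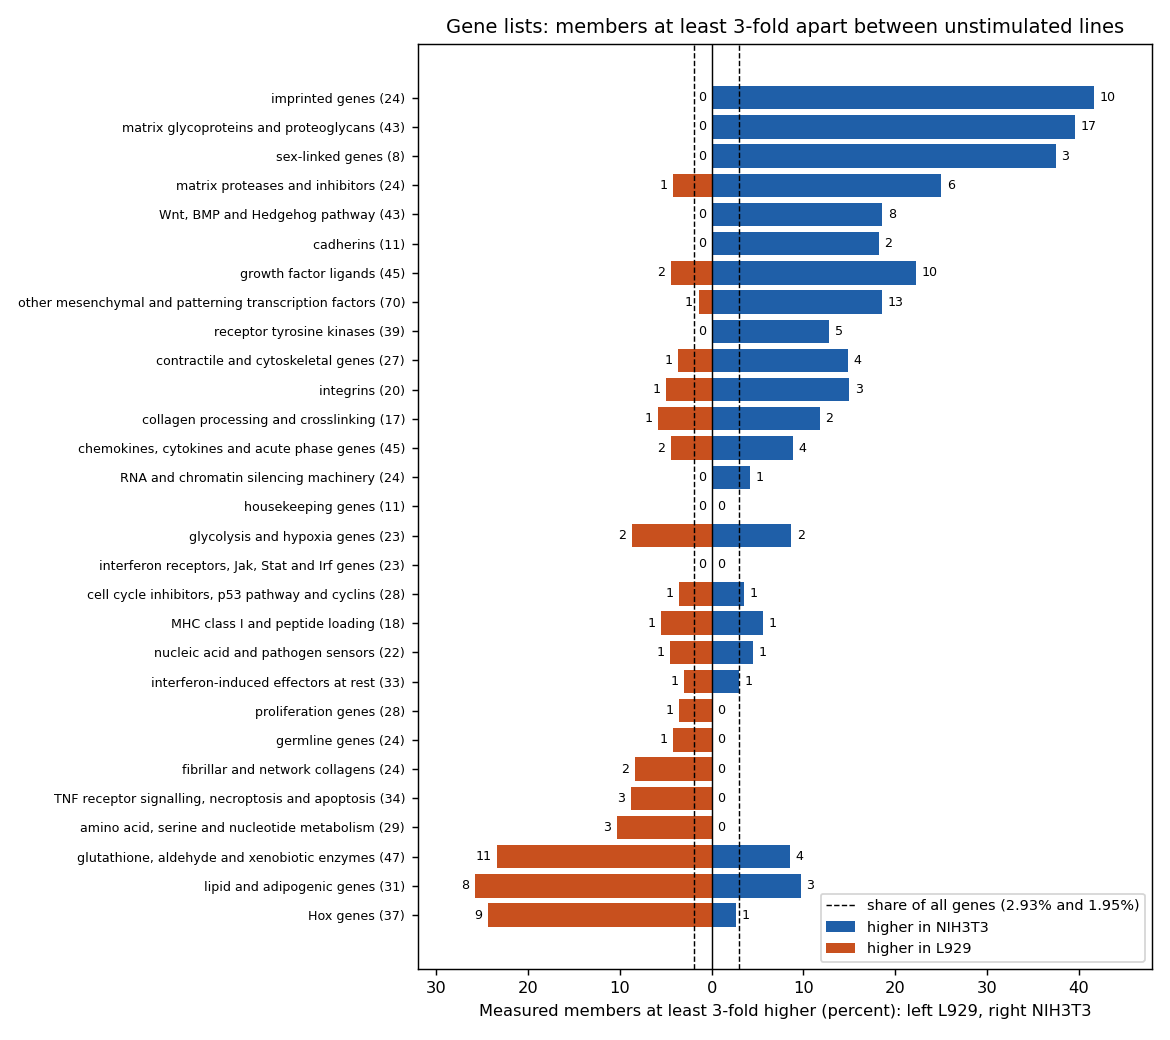
For each gene list, bars give the percent of measured members (number in brackets) at least 3-fold higher in NIH3T3 (blue, right) or in L929 (orange, left) between the unstimulated arrays, with the count at the bar's end, and dashed lines give the share of all genes. Imprinted genes (10 of 24) and matrix glycoproteins (17 of 43) reach furthest to the NIH3T3 side, and Hox genes (9 of 37), lipid genes (8 of 31) and glutathione and xenobiotic enzymes (11 of 47) to the L929 side.

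Of 27 contractile and cytoskeletal genes, 4 (14.8%, against 2.93% of all genes) were at least 3-fold higher in NIH3T3. In L929 1 was higher (3.70%, against 1.95%). On both pairs there were 3 and 0. Acta2, smooth muscle actin, which marks myofibroblasts, stood at 10.79 on the unstimulated and 10.42 on the IFN-β array of NIH3T3, and at 4.47 and 4.38 on those of L929. This 79.7-fold difference went with Tagln, an actin-binding protein of smooth muscle, at 8.34 and 3.96, and Myh10, a nonmuscle myosin, at 8.64 and 4.49 on the unstimulated arrays. Other muscle genes lay the other way. Tnnt2, cardiac troponin T, was 9.50-fold higher in L929 (6.25 and 9.50), and Des, the muscle filament desmin, 6.70-fold (4.10 and 6.85). Myod1, the regulator of skeletal muscle, was at 4.94 and 4.90. Shared cytoskeletal genes were close, such as Actn4 at 10.91 and 10.48.

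Cell-cell adhesion was measured through 11 cadherins. Of these, 2 (18.2%, against 2.93% of all genes) were at least 3-fold higher in NIH3T3 and 0 in L929. Cdh2, N-cadherin, stood at 8.86 and 3.99, and Cdh11, the cadherin of mesenchymal cells, at 7.76 and 3.98. In L929 all 11 cadherins lay between 3.11 and 5.03, and the other 9 differed by less than 2-fold between the lines. Cdh1, E-cadherin, was at 4.54 and 4.55. Among 20 integrins 3 (15%, against 2.93% of all genes) were higher in NIH3T3 and 1 (5%, against 1.95%) in L929. Itga6, a laminin receptor chain, was 5.09-fold and Itgb8, which frees TGF-β, 5.11-fold higher in NIH3T3, while Itgb5 was 3.22-fold higher in L929 at rest and under 1.5-fold apart between the IFN-β arrays. Itgav (9.31 and 9.13) and Itga5 (8.42 and 8.51) were close. Surface genes outside these lists stood further apart still. Cd34, a sialomucin of blood stem cells and of some fibroblasts, was at 10.93 in NIH3T3 and 3.61 in L929, and Cd9, a tetraspanin, at 10.68 and 4.73.

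Of 45 growth factor ligands 10 (22.2%) were at least 3-fold higher in NIH3T3, all 10 on both pairs of arrays, while 29 were under 2-fold apart and the list median was 0.28. Hgf, hepatocyte growth factor, the ligand of Met, stood at 8.76 and 8.46 on the NIH3T3 arrays and at 2.90 and 2.78 on the L929 arrays. Ereg, which activates the EGF receptor, was 8.79-fold higher, Ccn2, a matricellular target of TGF-β and Yap, 8.46-fold, Nrg1, an ErbB ligand, 8.14-fold and Fgf10, an epithelial growth factor made by mesenchyme, 8.13-fold. On the L929 side were 2 of 45. Angpt1, the ligand of the endothelial receptor Tek, stood at 4.02 in NIH3T3 and 7.93 in L929, and Ccn4, a Wnt target, at 6.33 and 9.12. Csf1, the macrophage growth factor for which L929 is used, was at 9.02 and 10.37, a 2.55-fold difference below the limit. Csf1 was named after its value was seen.

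Of 39 receptor tyrosine kinases 5 (12.8%, against 2.93% of all genes) were higher in NIH3T3 and 0 in L929. All 5 were so on both pairs, and 27 of the 39 were under 2-fold apart. Fgfr2 was 10.1-fold higher (6.89 and 3.55), Axl, the receptor of Gas6, 7.98-fold (10.88 and 7.88) and Egfr 4.40-fold (5.78 and 3.64). Fgfr1 (9.08 and 8.79) and the collagen receptor Ddr2 (8.86 and 9.09) were close. In the Wnt, BMP and Hedgehog pathways 8 of 43 genes (18.6%, against 2.93%) were higher in NIH3T3 and 0 in L929. Wnt5a, a ligand of the noncanonical pathway, stood at 7.16 and 3.15, its receptor Fzd2 at 7.58 and 4.61, and the BMP target Id2 at 10.83 and 7.86. Id1, another BMP target, was at 8.57 and 8.73.

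Of 70 other transcription factors that pattern the mesenchyme 13 (18.6%) were higher in NIH3T3 and 1 in L929, while 47 were under 2-fold apart and the list median was 0.20. Osr1, a factor of limb and kidney mesenchyme, was 33.6-fold higher, and Zeb1, a repressor that drives epithelial-mesenchymal transition, 24.8-fold (8.81 and 4.17). Foxf2 stood at 8.54 and 4.49. Twist1, which specifies mesenchyme, was 16.1-fold higher, and Prrx1, a factor of limb mesenchyme, was at 11.63 and 7.67. Sox9, the regulator of cartilage, was at 9.51 and 5.61. Not all regulators of mesenchymal state followed. Zeb2 was at 7.54 and 7.72, and Snai2 at 8.25 and 8.64. The single factor higher in L929 was Pax3, which acts in muscle precursors and neural crest, at 4.20 and 6.93.

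Hox genes at least 3-fold apart were mainly higher in L929. Of 37 measured, 9 (24.3%, against 1.95% of all genes) were at least 3-fold higher in L929 and 1 in NIH3T3. On both pairs there were 5 and 0. Hoxc10 stood at 3.47 in NIH3T3 and 8.22 in L929, a 26.9-fold difference, and at 3.91 and 8.42 between the IFN-β arrays. Then followed Hoxa9 (4.89 and 7.74), Hoxc8 (4.48 and 7.26), Hoxb9 (4.63 and 7.13), Hoxa10 (4.47 and 6.56), Hoxb6 (4.77 and 6.81), Hoxc9 (4.55 and 6.36), Hoxb7 (5.62 and 7.34) and Hoxc6 (5.30 and 6.94). The 5 on both pairs were Hoxc10, Hoxa9, Hoxc8, Hoxb9 and Hoxb7. The Hox gene higher in NIH3T3 was Hoxa5, at 7.59 and 5.87.

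Paralogue number, which orders Hox genes from the head end to the tail end of the embryo, was set beside these differences. All 9 Hox genes higher in L929 carry a number from 6 to 10, where 14 genes were measured with a median difference of -1.76. The 23 genes of other numbers had a median difference of -0.04 and lay between -1.22 and 1.72. Within the range from 6 to 10, the Hoxa, Hoxb and Hoxc clusters gave 9 of 11 genes, and the exceptions were Hoxa6 and Hoxa7. The Hoxd cluster was close throughout, with its 9 genes between -0.43 and 0.87, and Hoxd8 was above the array median in both lines at 8.60 and 7.74. This division by number was made after the values were seen.

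**Figure D3:**
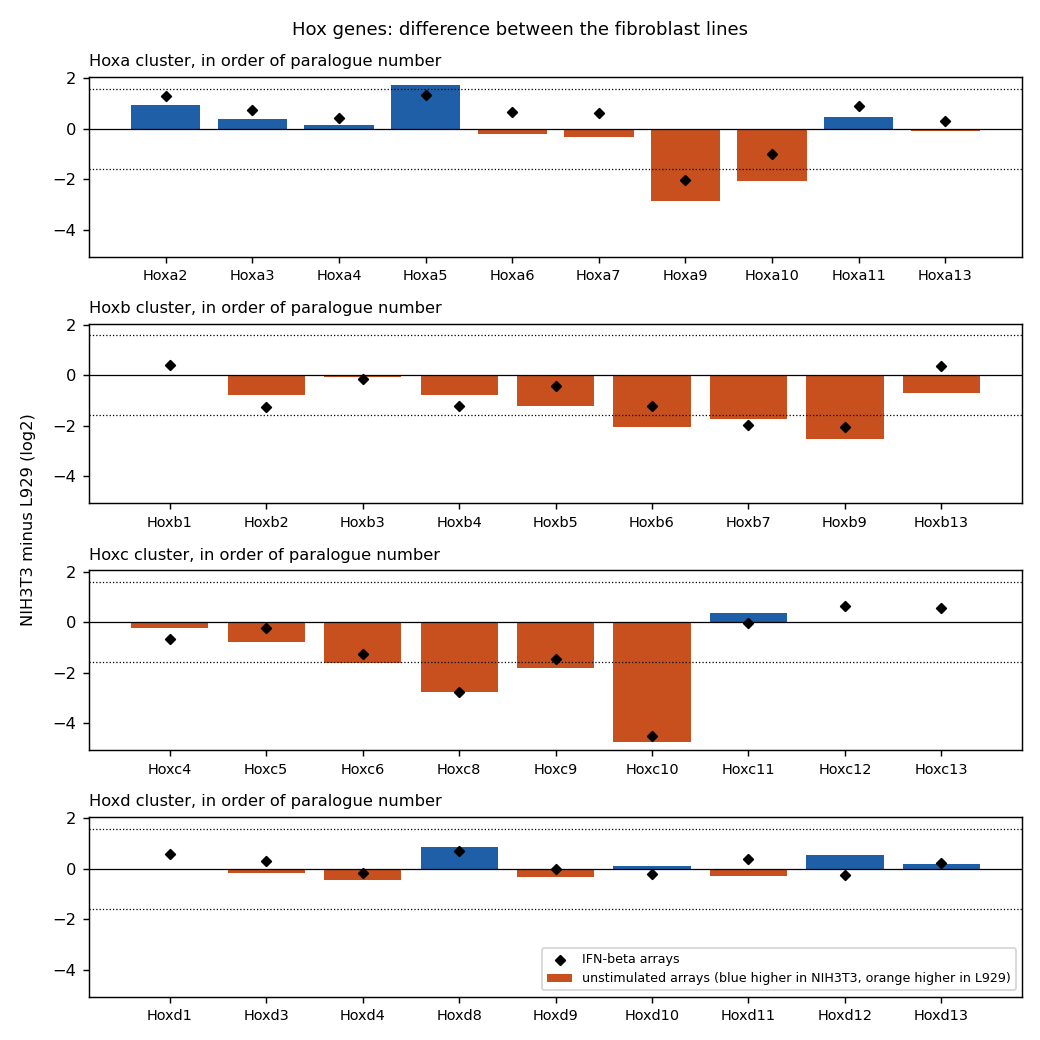
Bars give the difference in level, NIH3T3 minus L929 (log2), of each measured Hox gene between the unstimulated arrays, by cluster and paralogue number, blue where higher in NIH3T3 and orange where higher in L929, diamonds give the same between the IFN-β arrays, and dotted lines mark 3-fold. Genes numbered 6 to 10 of the Hoxa, Hoxb and Hoxc clusters reach below the lower line, apart from Hoxa6 and Hoxa7, while the Hoxd cluster stays between the lines.

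Adipogenic and lipid genes were divided between the lines. Of 31, 8 (25.8%) were at least 3-fold higher in L929 and 3 in NIH3T3, 5 and 3 on both pairs, and the median difference was 0.00. Pparg, the nuclear receptor that drives fat cell formation, stood at 4.06 and 4.35 on the NIH3T3 arrays and at 8.48 and 8.52 on the L929 arrays. Fabp4, a fatty acid carrier (3.96 and 9.75, 55.3-fold), and Cd36, a fatty acid transporter (3.39 and 8.43), of the same list were higher in L929 as well. So was Lpl, lipoprotein lipase (6.18 and 9.91), which stood at 10.54 in unstimulated RAW264.7, where Pparg was at 4.11. Dlk1, a surface protein that holds back fat cell formation, was 124-fold higher in NIH3T3 at 12.75 and 5.79. The lipid droplet proteins Plin4 (5.49 and 7.95) and Plin2 (8.72 and 10.75) were also higher in L929. Of 8 adipocyte markers Fabp4 and Pparg were 3-fold apart, and 4 of the 8 lay above the L929 array median. Plin1 (4.59 and 4.57), Cebpa (5.09 and 5.41), Cidec (a difference of -0.44) and Adipoq (-0.14) were under 1.5-fold apart. Among enzymes of fatty acids, Fasn (9.35 and 9.54) and Scd1 (9.77 and 9.89) were under 1.5-fold apart, and the desaturase Fads2, outside this list, was 60.0-fold higher in NIH3T3 (9.52 and 3.62). Ptgs2, cyclooxygenase 2, stood at 10.97 in NIH3T3 and 4.94 in L929.

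Glutathione, aldehyde and xenobiotic enzymes were more often higher in L929, 11 of 47 (23.4%), with 4 higher in NIH3T3 and a list median of -0.60. Mgst1, a microsomal glutathione transferase, stood at 3.49 in NIH3T3 and 8.47 in L929, a 31.6-fold difference, and its relative Mgst2 at 6.89 and 9.28. Cyp1b1, a cytochrome P450, was 11.4-fold higher in NIH3T3. Ahr, its regulator (6.86 and 4.74), and Nqo1 (9.05 and 6.91) were higher there as well. Cyp1a1 (-0.23) and Aldh3a1 (-0.77) of the same list were not higher in NIH3T3. The aldo-keto reductases split: Akr1c13 was 18.7-fold higher in L929 and Akr1c18 was 50.6-fold higher in NIH3T3. These belong to a family of close copies, and binding of their relatives to these probe sets was not tested. Gclm (9.05 and 9.12) and Txnrd1 (8.93 and 9.28), targets of the oxidative stress factor Nrf2, were close. Amino acid and nucleotide genes had 3 of 29 (10.3%, against 1.95% of all genes) higher in L929 and 0 in NIH3T3. Slc7a3, a transporter of cationic amino acids, stood at 4.76 and 8.76, and Trib3, a stress-induced pseudokinase, at 6.34 and 8.36.

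Genes of cell death that were 3-fold apart were all higher in L929. Of 34 genes of TNF receptor signalling, necroptosis and apoptosis, 3 (8.82%, against 1.95% of all genes) were at least 3-fold higher in L929. All 3 were so on both pairs, and 0 were higher in NIH3T3. Ripk3, the kinase that starts necroptosis, stood at 4.58 and 4.38 on the NIH3T3 arrays and at 8.18 and 8.23 on the L929 arrays, with 6.78 in unstimulated RAW264.7. That is a 12.1-fold difference between the unstimulated fibroblast arrays. Mlkl, the protein that Ripk3 phosphorylates to break the membrane, was close at 9.53 and 9.38, as was Cyld, a deubiquitinase of this pathway, at 8.75 and 8.67. Casp1, the inflammasome protease, stood at 2.29 and 7.21, and Bid, which links death receptors to mitochondria, at 5.78 and 8.20. Tnfrsf1a, the main TNF receptor (9.49 and 8.81), and Casp8 (8.43 and 7.98) were within 2-fold, both named after their values were seen.

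**Figure D4:**
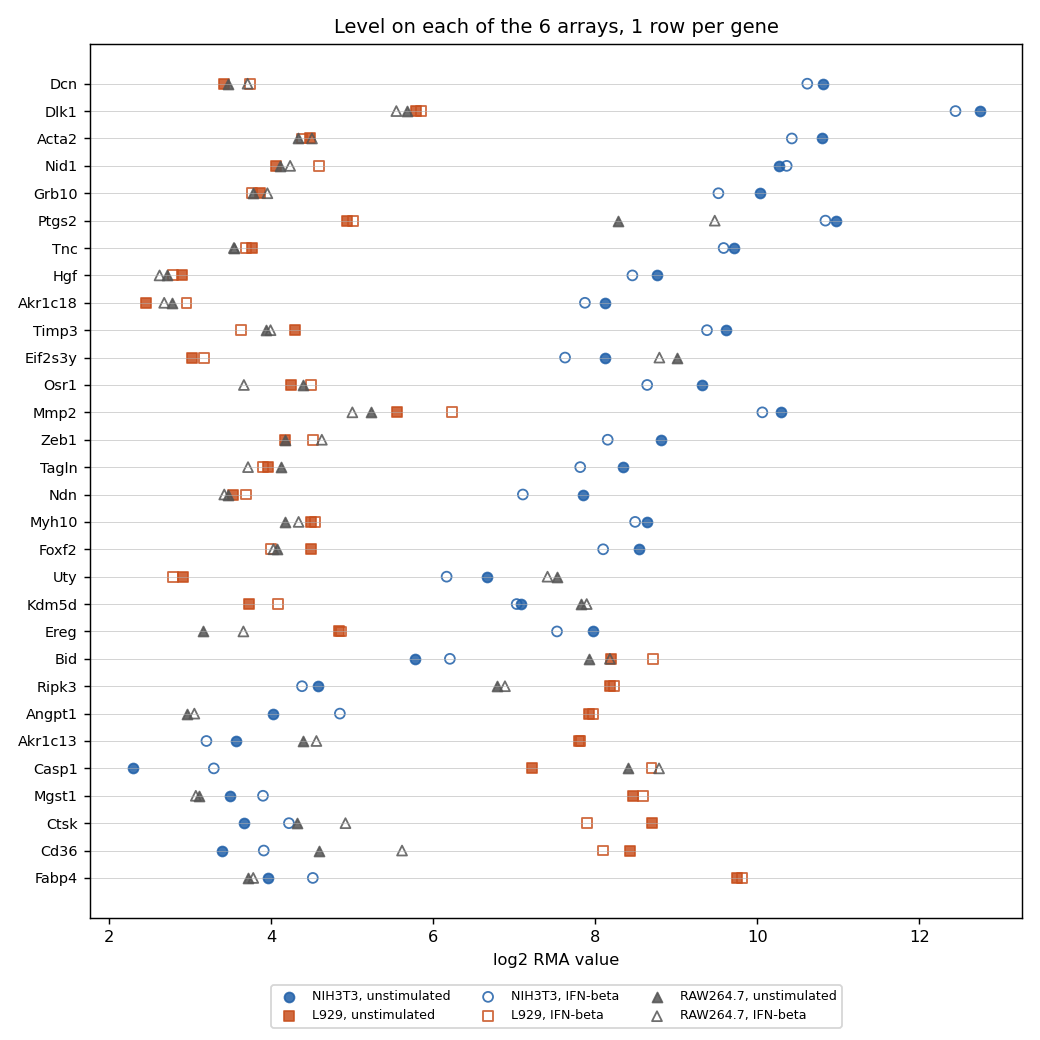
Each line of the plot is 1 gene with its log2 RMA level on each of the 6 arrays, NIH3T3 as blue circles, L929 as orange squares and RAW264.7 as grey triangles, filled for unstimulated and open for IFN-β. The genes were picked from list members at least 3-fold apart in the same direction on both pairs of fibroblast arrays. The gap between the NIH3T3 pair and the L929 pair thus follows from the choice of genes. They run from Dcn at the top (10.82 against 3.41 unstimulated) to Fabp4 at the bottom (3.96 against 9.75). RAW264.7 lies near NIH3T3 for Eif2s3y, near L929 for Dcn and below both for Angpt1.

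Imprinted genes, which are expressed from 1 parental copy in at least some tissues, gave the highest share of any list. Which copies were expressed in these lines was not measured. Of 24 measured, 10 (41.7%) were at least 3-fold higher in NIH3T3 and 0 in L929, and all 10 were also so on the IFN-β arrays. The median difference of the list was 0.85. Grb10, an adaptor that dampens insulin signalling, stood at 10.04 and 9.52 on the NIH3T3 arrays and at 3.87 and 3.76 on the L929 arrays, a 72.0-fold difference at rest. Dlk1 and its neighbour Meg3, a noncoding RNA expressed from the other parental copy, were both higher in NIH3T3, Meg3 at 8.21 and 4.81, and so was Rian of the same region at 5.92 and 2.65. Ndn, necdin, stood at 7.85 and 3.53. Igf2, a fetal growth factor, was at 7.29 and 4.78, Peg3 at 6.53 and 3.77, Slc38a4 at 9.43 and 6.54 and Asb4 at 6.23 and 3.72. Dcn, given above among the matrix genes, is counted in this list too, and Dlk1 also in the lipid list. In RAW264.7, 9 of the 10 were within 3-fold of L929. Igf2r (9.53 and 9.07) was close, and Cdkn1c (5.60 and 5.51) and Magel2 (4.96 and 4.75) were close near the median of both arrays.

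Y-linked genes differed in the same direction. Eif2s3y stood at 8.11 in NIH3T3 and 3.02 in L929, Uty at 6.67 and 2.90 and Kdm5d at 7.08 and 3.72, and on the unstimulated RAW264.7 array they were at 9.01, 7.53 and 7.82. These are the broadly expressed genes of the Y chromosome, and they were below the array median on both L929 arrays. Sry, Zfy1, Zfy2 and Usp9y, whose expression is mostly restricted, were under 1.5-fold apart, and so was Xist, the RNA that silences an X chromosome, at 3.22 and 2.99. Kdm5d, Eif2s3y and Uty were also neighbours among the measured genes in the gene order of RefSeq.

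Neighbouring genes with the same direction were looked for in that order. Only measured genes were kept in it, so an unmeasured gene may lie between neighbours. Of the placed genes higher in NIH3T3, 75 (13.0%) had a direct neighbour that was also at least 3-fold higher in NIH3T3, and of those higher in L929, 34 (8.90%) had one higher in L929. Over all placed genes, 5.70% had a direct neighbour at least 3-fold higher in NIH3T3 and 3.77% one higher in L929. There were 39 and 19 pairs of neighbours with the same direction, and 20 pairs of neighbours higher in opposite lines. Runs of 3 neighbours were found 7 times. On the L929 side these were Hoxb9, Hoxb7 and Hoxb6 on chromosome 11, Hoxc9, Hoxc8 and Hoxc6 on chromosome 15, Tmem167b, Wdr47 and Clcc1 on chromosome 3, and Cfap69, Steap2 and Steap1 on chromosome 5. On the NIH3T3 side, besides the Y-linked run, they were Nbea, Mab21l1 and Tm4sf1, and Glrb, Pdgfc and Ctso, both on chromosome 3. Steap1 and Steap2, metalloreductases, were high in both lines, at 8.52 and 10.14 and at 8.88 and 10.58.

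Cell cycle genes were close. Of 28 proliferation genes 27 differed by less than 2-fold, and the exception was Ccnb2, a mitotic cyclin, at 8.70 in NIH3T3 and 10.39 in L929. Ccna2 (10.99 and 10.96) and Rrm1 (10.83 and 10.86) were near equal. Among inhibitors and cyclins Mtap, the methylthioadenosine phosphorylase that lies beside Cdkn2a, was 11.7-fold higher in NIH3T3 at 9.56 and 6.01, and Ccnd1, cyclin D1, 3.16-fold higher in L929. Cdkn2a itself, at 5.14 and 5.61, and Cdkn2b, at 5.43 and 5.13, were within 1 of the array median in both lines, and were named after their values were seen. Of 11 housekeeping genes 0 were apart, with Actb at 13.66 and 13.76 and Eef1a1 at 14.16 and 14.13, and the list ran from -1.30 to 0.54.

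The next lists had small counts of members apart, with shares to be read beside 2.93% (NIH3T3) and 1.95% (L929) of all genes. Of 23 glycolysis and hypoxia genes 2 (8.70%) were higher in each line, and on both pairs 2 in NIH3T3 and 1 in L929. Ldhb is counted for NIH3T3, but its probe set number lies among those of chromosome 19, while the gene is on chromosome 6. Slc2a1, the glucose transporter Glut1, stood at 10.24 in NIH3T3 and 8.20 in L929, and Pfkp, the platelet form of phosphofructokinase, at 6.04 and 9.19, while Ldha was at 11.86 and 11.80. Of 24 genes of RNA and chromatin silencing 1 (4.17%) was apart, Tet1, which oxidises methylated cytosine, at 6.52 and 4.27. Of 24 germline genes 1 (4.17%) was apart, Tdrd12, at 3.45 and 5.05. Of 18 genes of MHC class I and peptide loading 1 (5.56%) was higher in each line. Among the markers of other cell types, the muscle list had 2 of 12 (16.7%) higher in each line. Cartilage and bone had 1 of 8 (12.5%), Sox9, in NIH3T3. Neural and glial cells had 1 of 8 (12.5%), S100b, at 3.92 and 7.35, and lymphocytes 1 of 7 (14.3%), Cd3g, at 3.16 and 5.25.

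Interferon genes, the subject of the series, differed at rest about as often as genes at large. Of 23 genes of the interferon receptors, Jak kinases, Stat and Irf factors 0 were 3-fold apart and 20 (87.0%, against 89.4% of all genes) differed by less than 2-fold, with Jak1 at 10.29 and 9.99. The list ran from -1.33 to 1.34. Of 33 interferon-induced effectors 1 (3.03%) was higher in each line and 29 (87.9%) differed by less than 2-fold. Trim30a was 4.61-fold higher in L929 (4.69 and 6.89), and Irgm1, an immunity-related GTPase, 3.73-fold higher in NIH3T3 (6.85 and 4.95). Among the sensors Aim2, a receptor of cytosolic DNA, stood at 5.04 and 7.92, and Ddx58, the RNA sensor RIG-I, at 6.51 and 4.75, while Tlr4 (7.73 and 7.56) and Mavs (7.40 and 7.28) were close. Chemokine and cytokine genes had 4 of 45 (8.89%, against 2.93% of all genes) higher in NIH3T3, led by Il13ra1 (7.54 and 3.36). In L929 2 (4.44%, against 1.95%) were higher, Ccl9 (6.03 and 8.29) and Ccl7 (7.83 and 9.63).

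**Figure D5:**
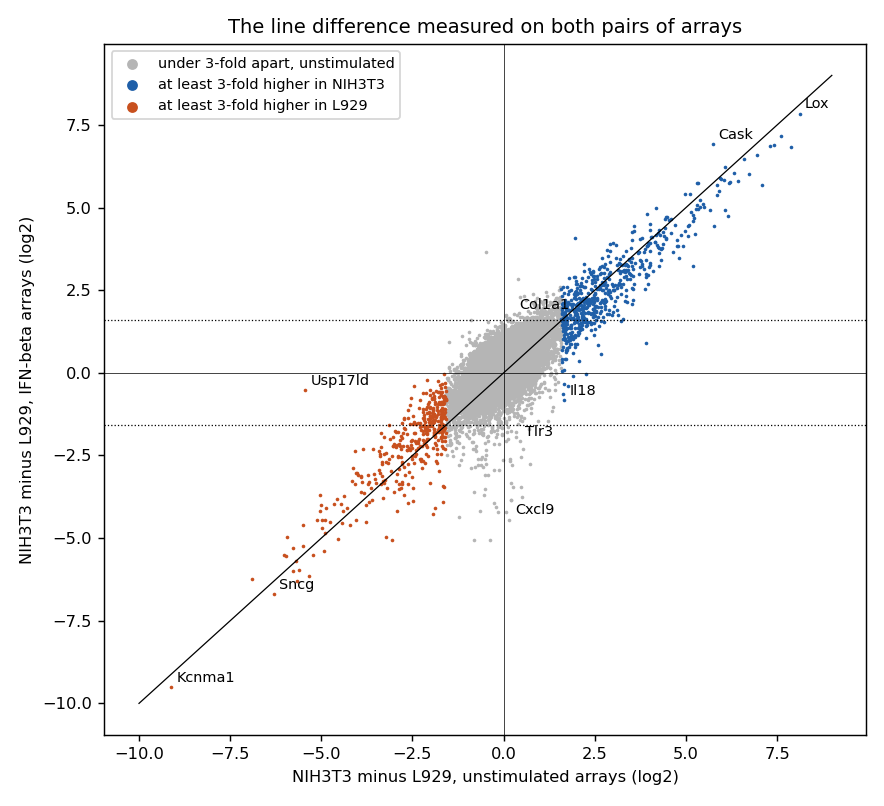
Each point is 1 gene, with the difference NIH3T3 minus L929 (log2) between the unstimulated arrays (x axis) and between the IFN-β arrays (y axis), the diagonal marks equal differences and dotted lines mark 3-fold on the y axis. Genes far apart at rest, such as Lox (8.11 and 7.84) and Sncg (-6.30 and -6.70), lie near the diagonal, while Cxcl9 (0.16 and -4.44) and Tlr3 (0.44 and -2.07) are apart on the IFN-β arrays only and Usp17ld (-5.45 and -0.52) on the unstimulated arrays only.

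The second pair of arrays showed how far the differences held. Of the 584 genes higher in NIH3T3 at rest, 578 had the same direction on the IFN-β arrays and 460 (78.8%) were again at least 3-fold apart. Of the 388 higher in L929 all 388 had the same direction and 249 (64.2%) were again 3-fold apart. The median difference over all genes was 0.21 between the IFN-β arrays against -0.03 at rest, with a median level of 5.05 on the IFN-β array of NIH3T3 against 4.82 on that of L929. Centring the arrays on their medians gave 406 genes at least 3-fold higher in NIH3T3 on both pairs and 281 in L929. The counts on both pairs given for the lists above were taken without centring. Over all genes the median gap between the 2 measurements of the difference was 0.37, and 1325 genes (6.65%) had a gap of at least 1. This gap holds array error and the response to IFN-β together. Where a gene had further probe sets of its own, they had the same direction for 31 of 32 genes higher in NIH3T3 and 13 of 16 higher in L929.

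The genes furthest apart on both pairs were led in NIH3T3 by Lox, then Marcks, a substrate of protein kinase C that binds the membrane and actin, at 10.71 and 2.82, and Tmsb4x, thymosin beta 4, which sequesters actin monomers, at 10.94 and 3.32. Tmsb4x was as high in RAW264.7, at 11.08, so that L929 was the line in which it was low, and the same held for Marcksl1 (10.57, 3.48 and 10.92 in RAW264.7). Marcks itself was at 3.10 in RAW264.7. Crabp1, a binding protein of retinoic acid, stood at 12.02 in NIH3T3 and 5.43 in L929, while its relative Crabp2 stood at 4.86 and 9.85, each line thus having 1 of the pair at a high level. Ptn, pleiotrophin, a heparin-binding growth factor, was at 10.52 and 4.10, and Emb, embigin, a partner of lactate transporters, at 9.43 and 2.70.

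In L929 the highest fold belonged to a probe set annotated to Kcnma1, a potassium channel, at 4.05 in NIH3T3 and 13.17 in L929. Its number lies among probe sets of chromosome 8, while Kcnma1 is on chromosome 14, and the other probe set of Kcnma1 differed by -0.18, so the transcript behind this value is uncertain. The probe set of AI506816 (2.15 and 9.07) lay likewise among those of another chromosome. The largest difference without this doubt was that of Sncg, gamma-synuclein, at 5.90 in NIH3T3 and 12.20 in L929, and at 5.53 and 12.23 on the IFN-β arrays. Eng, endoglin, a coreceptor of TGF-β known from endothelium, stood at 4.52 and 10.18, but of 11 endothelial markers it alone was apart, with Cdh5 at 4.33 and 3.90. Plac8 stood at 2.57 and 8.51, S100a1, a calcium-binding protein, at 5.05 and 10.55, and Crip2 at 4.83 and 10.53.

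Some genes far higher in L929 than in NIH3T3 were also high in RAW264.7, although of the 17 macrophage markers 0 were 3-fold higher in L929. Tmem176b stood at 4.50 in NIH3T3 and 10.46 in L929, with RAW264.7 at 10.62. In the same order Srgn, serglycin, the proteoglycan of secretory granules, stood at 3.46, 9.07 and 12.20, and Gpnmb, a lysosomal glycoprotein, at 5.12, 10.24 and 9.03. Of the 249 genes higher in L929 on both pairs, RAW264.7 was at least 3-fold above NIH3T3 for 102 (41.0%). Of the 460 higher in NIH3T3 on both pairs, RAW264.7 was at least 3-fold above L929 for 101 (21.96%). Each of these shares compares the same low array with both other lines, so that a low value by array error raises both differences at once, and no background is given for them. For 326 of the 460 (70.9%) and 136 of the 249 (54.6%), RAW264.7 was within 3-fold of the low line. The macrophage markers Ctss (4.41, 4.48 and 12.07 in RAW264.7) and Tyrobp (4.61, 4.33 and 11.61) were low in both fibroblast lines.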

How the data were processed

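The series holds 6 arrays of total RNA, 1 per cell line and condition, and the labels name an Affymetrix kit for whole transcripts. RMA, named in the submitters' processing notes, gave the deposited log2 values. Its settings and version and the genome build of the array are not given by any source used here. That the base is 2 was read from the range of the values. Of 35557 probe sets the array annotation gives 21789 a single gene, 1621 several genes and 12147 none. Where a gene had several single-gene probe sets (999 genes), that of the highest 6-array mean stood for it, which gave 19938 genes. No filter on low levels was applied. Differences of log2 values between 2 arrays were counted at 3-fold with no test, and precision is limited by the number of arrays. A level was set against the median of its array or summarised over a list as a description, and no gene's level was ranked against another's, since probe sets differ in brightness.

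The comparison, its 29 gene lists and 9 marker lists were chosen with earlier results of these data known. Genes were named by a rule: the 25 largest differences in each direction among genes at least 3-fold apart on both pairs of arrays, from each list up to 5 members per direction and up to 3 close members of high level, every sex-linked, Hox, cadherin and fibroblast marker gene, and runs of 3 neighbours. Genes named outside the rule, with their values already seen, are Csf1, Cdkn2a, Cdkn2b, Tnfrsf1a, Casp8, Cxcl9, Tlr3, Usp17ld, Gabbr1, Ank, Tmem50b, Cdr2l, Rian, Peg3, Igf2, Slc38a4, Asb4, Plin2, Plin4, Adipoq, Cyp1a1 and Aldh3a1. A check of whether a probe set's number lies among those of its gene's chromosome (GRCm38.p6 of RefSeq, used for names, order and promoters only) was added after the data were seen. It placed 19487 of 19757 genes on their own chromosome and 270 on another, 10 of these at least 3-fold apart, and genes placed on another were left out of neighbour runs, which removed 1 run and added 1. Beside TATAAA, 2 further motifs were searched in promoters and are not reported here. Counting was tested on simulated data. The work used numpy 2.4.6, pandas 2.3.3 and, for plots, matplotlib 3.10.9 in Python 3.11.15.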

Additional observations from a re-analysis of the deposited data

Results flagged for a closer look

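The sign of the difference between the lines changed for 3 of the named genes at least 3-fold apart at rest. The difference between the 2 pairs of arrays was not tested. Ddx58, the RNA sensor RIG-I, differed by 1.76 (NIH3T3 minus L929, log2) between the unstimulated arrays, at 6.51 and 4.75, and by -0.41 between the IFN-β arrays, at 10.17 and 10.58. Il18, an inflammasome cytokine, differed by 1.67 at rest, at 4.41 and 2.74, and by -0.83 between the IFN-β arrays, at 4.72 and 5.55. Irgm1, an immunity-related GTPase, differed by 1.90 at rest, at 6.85 and 4.95, and by -0.088 between the IFN-β arrays, at 11.07 and 11.16. The lines were thus near equal for Irgm1 on the IFN-β arrays.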

How the results depend on the processing

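Counts followed the fold limit most. At 2-fold, 1120 genes were higher in NIH3T3 and 997 in L929 (867 and 523 on both pairs), and at 5-fold 321 and 173 (238 and 116 on both pairs). Over all probe sets, named or not, the count for L929 was 663 and for NIH3T3 839. Other choices moved each count by less than 1.5 times: the mean over a gene's probe sets (580 and 383), centring each array (590 and 386), quantile normalization (585 and 385), a filter at the median level (572 and 383) and, chosen after seeing the data, leaving out the genes placed on another chromosome (580 and 382). Of the 584 and 388 genes, 576 and 377 were again counted after quantile normalization. With the IFN-β arrays in place of the unstimulated ones, where the median difference is 0.21, 620 and 395 genes were counted. These held 460 of the 584 and 249 of the 388 genes counted at rest. The list median of the collagens went from -0.21 to 0.44 and that of the integrins from 0.09 to 0.66, while that of the imprinted genes was 0.85 and 0.95. Of the named genes at least 3-fold apart at rest, Ddx58 (-0.41), Il18 (-0.83) and Irgm1 (-0.088, near equal) changed sign. With 1 array a side, leaving out a replicate was not possible. No paired analysis was possible because each group had 1 array and the result comes from no test.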
